A study of Drosophila melanogaster with 3 samples.

Results

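The 10 genes described here encode DNA-binding proteins with a BTB domain: Trl, psq, lola, ttk, bab1, bab2, chinmo, ab, fru and rib. What was measured at them is where CG8119, carrying a tag of enhanced green fluorescent protein (eGFP), lay along the genome of whole Drosophila melanogaster prepupae aged 1 day. Chromatin of the strain CG8119-GFP was sheared by sonication, pulled down through the tag with an antibody against GFP, and sequenced (ChIP-seq). The 3 samples are labelled as biological replicates of 1 group, all carry the insertion, their sex was not collected, and the promoter that drives the fusion is not given in the sources used here. A control experiment that the labels name was not analysed here, so no condition was set against another. The genes were chosen by the peaks themselves, since peaks had been seen at several of them, and a peak belonged to a gene if its summit lay in the gene body or within 5 kb of it. By that rule the 10 genes held 56 of the 7279 peaks of replicate 1, 59 of the 6769 of replicate 2 and 47 of the 4608 of replicate 3. Peak numbers, positions and signals at these genes are therefore descriptions, and no test was run on them.

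Summits of the 3 replicates that lay within 150 bp of each other were joined into a locus, and a locus with a summit of every replicate is called shared. The genes held 75 of the 9014 loci of the series and 35 of its 3746 shared loci. The authors' signal of a peak has no stated scale, so it was ranked within the list of its own replicate. A signal percentile of 90.6 means that the peak was as strong as, or stronger than, 90.6% of the peaks in that list. A locus counted as promoter if its centre, the median of its summits, lay within 500 bp of an annotated transcript start. Offsets are given along the strand of the gene, negative ones upstream of the start, and coordinates are 1-based on build dm6.

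The BTB domain (also called POZ domain) lets proteins pair with themselves and with each other, and in this family it is joined to a DNA-binding part, most often zinc fingers. Such factors act in fly development as repressors, activators and organisers of chromatin, and several make many protein forms from 1 gene by joining a common BTB part to different DNA-binding ends. Trl encodes the GAGA factor, which binds GAGAG and helps keep promoters free of nucleosomes, and psq encodes Pipsqueak, which binds the same letters with a different kind of domain. The prepupa is the stage at which the hormone ecdysone starts the replacement of larval by adult tissues. Signal at a gene here means that fragments pulled down with CG8119-eGFP were concentrated there, and it does not show that the gene is regulated. In whole animals, binding in few cells and weak binding in many cells cannot be told apart.

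The DNA under the strongest shared locus of Trl, ttk, bab1, bab2, chinmo, ab and fru is shown to make visible the base composition and the words described further on. Each line gives the plus strand for 100 bp on either side of the locus centre, from the RefSeq genome assembly of the same release as dm6, with positions on 2L, 3L or 3R. Capitals mark GAGAG or its complement, and any of the 10 words of 7 bases whose frequency at the shared loci elsewhere most exceeded that in flanking windows, all made of A and T alone. For Trl both its strongest locus and the locus at its internal start are given.
Trl strongest locus (chr3L:14759419-14759619): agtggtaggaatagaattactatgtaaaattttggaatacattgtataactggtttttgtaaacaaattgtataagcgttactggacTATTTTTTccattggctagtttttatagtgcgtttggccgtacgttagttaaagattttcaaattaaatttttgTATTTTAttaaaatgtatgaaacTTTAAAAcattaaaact
Trl promoter locus (chr3L:14757102-14757302): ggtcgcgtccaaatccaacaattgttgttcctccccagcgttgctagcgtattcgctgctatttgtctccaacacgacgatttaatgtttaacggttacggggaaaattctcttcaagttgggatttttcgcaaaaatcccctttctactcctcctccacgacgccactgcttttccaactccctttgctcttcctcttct
ttk intronic locus (chr3R:31717367-31717567): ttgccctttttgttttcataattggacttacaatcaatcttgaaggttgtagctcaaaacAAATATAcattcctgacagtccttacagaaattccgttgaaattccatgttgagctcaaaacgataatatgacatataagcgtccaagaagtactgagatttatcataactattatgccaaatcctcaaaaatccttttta
bab1 downstream locus (chr3L:1032688-1032888): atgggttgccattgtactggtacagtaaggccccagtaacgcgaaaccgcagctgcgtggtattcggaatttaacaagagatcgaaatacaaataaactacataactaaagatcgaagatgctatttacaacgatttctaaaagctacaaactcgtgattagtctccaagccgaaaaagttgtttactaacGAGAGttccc
bab2 upstream locus (chr3L:1178175-1178375): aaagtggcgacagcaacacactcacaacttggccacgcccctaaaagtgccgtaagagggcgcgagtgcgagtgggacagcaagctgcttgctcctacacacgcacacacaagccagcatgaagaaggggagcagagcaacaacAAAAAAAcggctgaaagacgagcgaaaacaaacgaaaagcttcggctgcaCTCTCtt
chinmo intronic locus (chr2L:1669763-1669963): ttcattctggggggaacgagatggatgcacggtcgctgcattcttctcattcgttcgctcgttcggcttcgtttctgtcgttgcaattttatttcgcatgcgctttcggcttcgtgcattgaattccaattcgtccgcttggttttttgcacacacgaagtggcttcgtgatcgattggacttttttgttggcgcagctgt
ab intronic locus (chr2L:11219736-11219936): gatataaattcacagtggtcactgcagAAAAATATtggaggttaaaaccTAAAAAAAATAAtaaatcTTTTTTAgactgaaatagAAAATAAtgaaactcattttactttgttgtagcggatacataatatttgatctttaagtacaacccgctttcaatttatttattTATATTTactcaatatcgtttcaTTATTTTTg
fru intronic locus (chr3R:18481082-18481282): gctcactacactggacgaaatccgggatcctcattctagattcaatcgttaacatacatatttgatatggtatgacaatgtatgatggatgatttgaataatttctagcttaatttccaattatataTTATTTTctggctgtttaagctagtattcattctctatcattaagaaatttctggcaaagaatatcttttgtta
The strongest locus of Trl held 4 of these A/T words, and the locus in ab held 13 overlapping matches. The Trl promoter locus, the bab1 locus and the chinmo locus held none. GAGAG or its complement stood only in the bab1 and bab2 lines of this set, and neither of the 2 printed loci of Trl, the gene of the GAGA factor, held it.

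CG8119-eGFP lay at 9 of the 10 genes in all 3 replicates, with rib as the exception. Over all 13968 protein-coding genes, 32.8% had a shared locus in the body or within 5 kb. Long genes offer more room, and 8 of the 10 genes have a body of at least 20 kb. All of those 8 had a shared locus, against 62% of the 1020 protein-coding genes of that length. At an annotated start of their own, 3 of the 10 genes (Trl, psq and lola) had a shared locus, against 9.06% of all protein-coding genes. Of the 8 long genes, psq and lola had such a locus, against 19.8% of all long protein-coding genes. Because peaks at these genes were known when the genes were picked, nothing is read from these differences.

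Per length of DNA, the windows of the 10 genes, 603 kb in all, held 5.80 shared loci per 100 kb. The windows of all protein-coding genes held 3.06 per 100 kb, and those of long genes 2.98. The ratio of the peak density in the 10 windows to that in all protein-coding windows was 1.55, 1.76 and 2.07 in replicates 1, 2 and 3, a mean of 1.80 ± 0.265 (SD, n = 3). psq and fru had 8 shared loci each, lola 5, bab1 4, Trl and ab 3 each, chinmo 2, and ttk and bab2 1 each. The median protein-coding gene had 0 and the median long gene 1, while the 90th percentile of long genes was 5 and the highest count of any gene was 18. The plot of counts against window length shows psq, fru and lola at or above that 90th percentile, and ttk and bab2 at the level of the median long gene. Per 100 kb Trl led with 13.0, followed by psq with 11.5 and lola with 7.003, and the other genes with a shared locus lay between 2.13 for bab2 and 5.66 for fru.

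**Figure D1:**
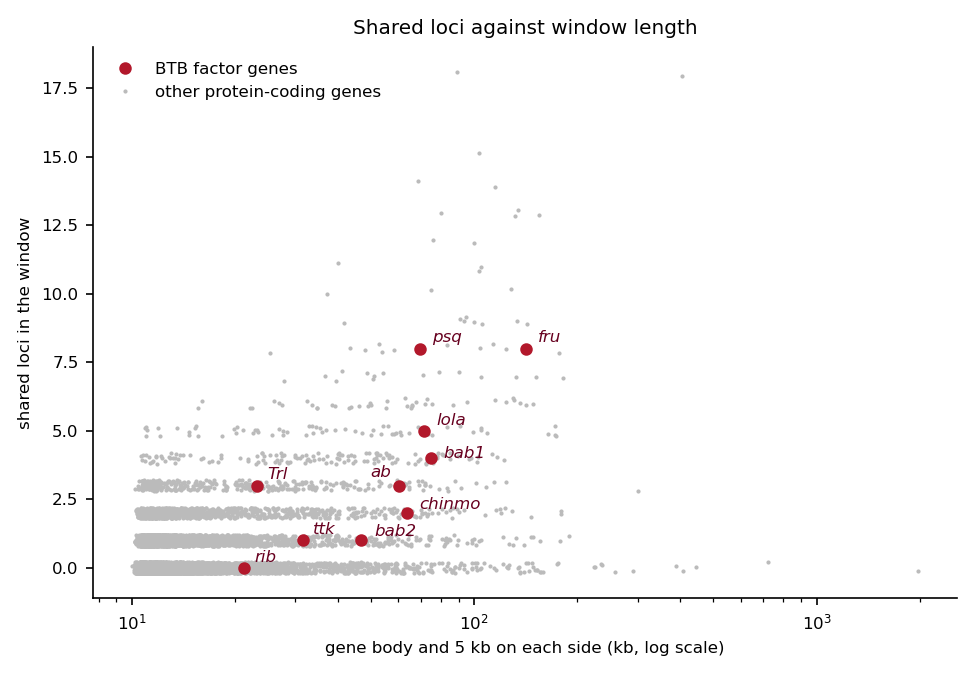
Shared loci in a gene's window (vertical axis, with a small vertical scatter on the grey points) against the length of that window in kb on a log scale, for the 10 BTB factor genes (red, named) and all other protein-coding genes (grey). psq and fru have 8 shared loci each and rib has none, while the highest count of any gene is 18.

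Trl (FBgn0013263, 3L, 14747929 to 14761049, minus strand) had 5, 4 and 5 peaks in replicates 1, 2 and 3. They formed 6 loci, of which 3 were shared, all within the 5′ part of the gene between 1.53 and 4.92 kb from its 5′ end. The strongest, at 14759519, had signals of 1141, 1334 and 1119.9 in replicates 1, 2 and 3. It ranked 10, 2 and 3 in those lists, with summits that lay within 5 bp of each other. This site, 1530 bp downstream of the first start, stood far above every other locus of the 10 genes. The next of those had a mean percentile of 90.6. The site is intronic only for the 1 of 10 annotated Trl transcripts that uses the first start. The other starts lie 3.09 to 3.71 kb from the 5′ end, so the site is upstream of them.

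The other shared loci of Trl lay near its internal starts. The locus at 14757202, 134 bp downstream of the most internal start, had signals of 291, 287 and 245 in replicates 1, 2 and 3. Its mean percentile was 90.6 ± 1.43 (SD, n = 3), so the replicates placed it almost alike. The locus at 14756126, 1210 bp downstream of the same start, had signals of 133, 209 and 232. Its percentile was lower in replicate 1, at 68.9, than in replicates 2 and 3, at 85.1 and 87.8, a mean of 80.6 ± 10.2. Both loci also lie inside the overlapping gene CG42507. The start used by 7 of the 10 annotated Trl transcripts had no shared locus within 500 bp, though a locus at an offset of −251 bp from it was found in replicates 1 and 3, with signals of 77.2 and 68.9.

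**Figure D2:**
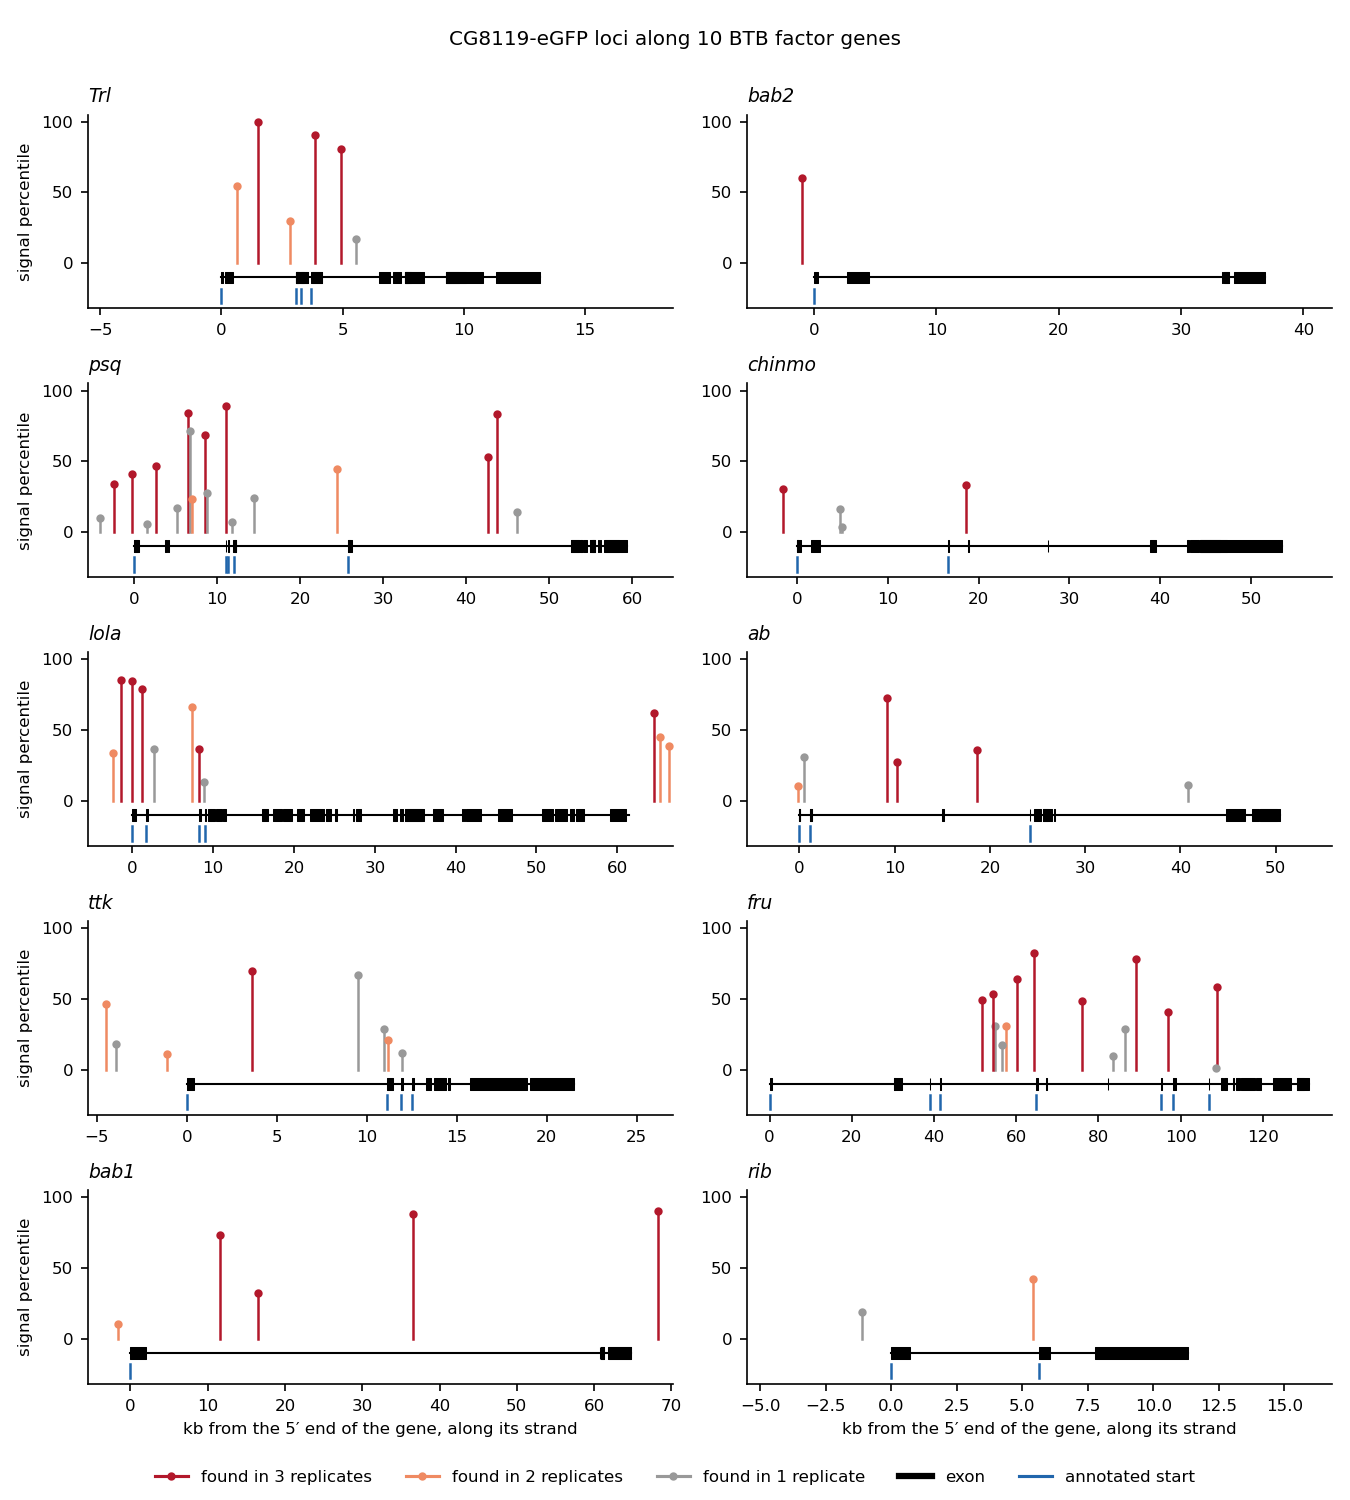
Loci along each of the 10 genes, drawn from the 5′ end along the gene's own strand in kb (horizontal axis), with the mean signal percentile of the locus over the replicates that have it (vertical axis). Red stems are loci found in 3 replicates, orange in 2 and grey in 1, black blocks are exons and blue ticks are annotated starts. Shared loci stand within 500 bp of 1 start of Trl, 3 of psq and 3 of lola, and those of fru lie in introns 51.6 to 108.8 kb from its 5′ end.

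psq (FBgn0263102, 2R, 10557888 to 10617280, plus strand) had the most loci of the 10 genes. It held 13, 13 and 11 peaks in replicates 1, 2 and 3, which formed 18 loci, 8 of them shared, 2 in a pair of replicates and 8 in 1 replicate. Its strongest shared locus, at 10569050, lay 108 bp downstream of an internal start. The signals there were 263, 247 and 236 in replicates 1, 2 and 3, and the mean percentile was 88.8 ± 0.66 (SD, n = 3). This locus was within 500 bp of a further start as well, so 3 of the 5 distinct starts of psq had a shared locus near them.

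The next loci of psq were intronic. At 10564390, with an offset of −4552 bp from the nearest psq start, the signals were 254, 204 and 173, and the mean percentile was 84.2 ± 4.55. At 10601620 the signals were 175, 334 and 160.1, and the mean percentile was 83.2 ± 9.26. That site was highest in replicate 2 and lay nearer to the start of CG11883, at an offset of −16042 bp, than to any psq start. The locus at the first start of psq, at 10557731 and 157 bp upstream of it, was weaker, with signals of 78.2, 104 and 75.1 and a mean percentile of 41.0 ± 12.8. The remaining 4 shared loci had mean percentiles between 34.1 and 68.9. Along the gene, 6 of the 8 lay from 2.41 kb upstream of the 5′ end to the internal promoter, each 2047 to 3790 bp from its neighbour, and a stretch of 31498 bp without a shared locus followed.

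lola (FBgn0283521, 2R, 10481894 to 10543291, minus strand) encodes a large set of factors named for their part in axon growth. Its peak number had the largest spread of the 10 genes over the replicates, with 12, 9 and 5 in replicates 1, 2 and 3. The 11 loci comprised 5 shared ones, 4 found in a pair of replicates and 2 found in 1. Without replicate 3, the shortest list, the count of loci common to the remaining replicates was 9. The 3 strongest shared loci stood around the first pair of starts. Upstream of the gene, at 10544730, the signals were 215, 214 and 216, and the mean percentile was 85.7 ± 0.535 (SD, n = 3), the closest match between replicates of any locus of the gene.

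At the first start of lola, at 10543402 and 111 bp upstream of it, the signals were 187, 239 and 199.8, and the mean percentile was 84.5 ± 3.40. At 10542111, 441 bp upstream of the start that 8 of its 24 transcripts use, the signals were 174, 159.6 and 185, and the mean percentile was 78.8 ± 2.73. At 10535079, 47 bp upstream of the start that 11 transcripts use, the signals were 104, 74.9 and 65.7 and the mean percentile was 36.5 ± 18.6. The most used start in the annotation thus carried the weakest of the shared loci at lola starts. The fifth shared locus, at 10478738, lay beyond the 3′ end of lola and belonged by position to the promoter of whd, at an offset of −171 bp, with signals of 179, 109 and 93.9.

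ttk (FBgn0003870, 3R, 31713867 to 31735392, plus strand), which encodes the Tramtrack repressors of neural fate, had 4, 7 and 2 peaks in replicates 1, 2 and 3. Only 1 of its 8 loci was shared. It lay in an intron at 31717467, 3600 bp downstream of the first start, with signals of 108, 174 and 141 and a mean percentile of 69.9 ± 10.4 (SD, n = 3). The internal starts of ttk had loci that were not shared: at 31725020, 24 bp downstream of a start, signals of 78.8 and 42.0 were listed in replicates 1 and 2, and loci in replicate 2 alone and replicate 3 alone lay close by. Without replicate 3, 4 loci of ttk were common to the remaining replicates.

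bab1 and bab2 are neighbouring genes of the bric-à-brac locus, which pattern legs, ovary and the pigment of the abdomen. bab1 (FBgn0004870, 3L, 1036369 to 1101089, minus strand) had 4, 5 and 5 peaks in replicates 1, 2 and 3, which formed 4 shared loci and 1 further locus. Its strongest site, at 1032788, lay 3581 bp past its 3′ end in an intron of trio, and the nearest start was that of CG9205, at an offset of −1909 bp. The signals there were 362, 256 and 217, and the mean percentile was 90.2 ± 4.002 (SD, n = 3). Inside the gene, at 1064549, they were 307, 231 and 214, at 1089478 they were 143, 148 and 148, and the mean percentiles were 88.4 ± 3.23 and 73.0 ± 0.693. These sites lay 36540 bp and 11611 bp downstream of the only bab1 start, and the start of CG9205 was nearer to the first of them, at 29364 bp. The fourth locus, at 1084549, was placed very differently by the replicates, with percentiles of 36.9, 52.3 and 8.33.

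bab2 (FBgn0025525, 3L, 1140429 to 1177276, minus strand) had a single locus, with 1 peak in each replicate. It lay upstream of the gene at 1178275, 999 bp from the only start. The signals were 121, 102 and 120.0, and the mean percentile was 60.4 ± 5.46 (SD, n = 3). Neither bab gene had a shared locus at its start.

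chinmo (FBgn0086758, 2L, 1651258 to 1704682, plus strand), which sets the temporal identity of neurons and is known as a factor of larval stages, had 2 shared loci, both of them weak. It held 2, 4 and 2 peaks in replicates 1, 2 and 3. The intronic locus at 1669863, 2016 bp downstream of a start, had signals of 75.5, 86.6 and 67.5 and a mean percentile of 33.0 ± 10.8 (SD, n = 3). The locus upstream of the gene at 1649700, 1558 bp from the first start, had signals of 73.0, 62.4 and 86.8 and a mean percentile of 30.6 ± 11.8. The difference between these loci was smaller than the spread of either over the replicates. When only the stronger 50% of each list was used, 0 loci of chinmo were shared.

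ab (FBgn0264442, 2L, 11210678 to 11261080, plus strand) encodes Abrupt, which shapes the dendrites of sensory neurons. It had 3, 5 and 5 peaks in replicates 1, 2 and 3, and all of its 3 shared loci were intronic. The strongest, at 11219836, had signals of 162, 154 and 131 and a mean percentile of 72.8 ± 4.81 (SD, n = 3). The loci at 11229332 and 11220955 were far weaker, with mean percentiles of 35.8 ± 9.87 and 27.4 ± 16.1. The first start of ab had a locus 147 bp from it in replicates 2 and 3 only, with signals of 56.7 and 57.7.

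fru (FBgn0004652, 3R, 18414273 to 18545586, minus strand), the regulator of male courtship behaviour, is the longest of the 10 genes, with a body of 131 kb. It held 11, 11 and 9 peaks in replicates 1, 2 and 3, which formed 14 loci, 8 of them shared. All 8 were intronic and lay between 51.6 and 108.8 kb from the 5′ end, and none was within 500 bp of any of its 7 distinct starts. The strongest, at 18481182, lay 506 bp from a start and so just outside the promoter limit. Its summit in replicate 1, at 18481159, was inside that limit, while those in replicates 2 and 3 were outside. The signals of this locus were 188, 197 and 191, and the mean percentile was 82.6 ± 1.09 (SD, n = 3). At 18456385 the signals were 170.3, 203 and 145 and the mean percentile was 78.3 ± 5.96, and at 18485470 they were 143, 124 and 104 with a mean percentile of 63.9 ± 8.85. The other 5 had mean percentiles of 40.7 to 58.2. The start that 8 of the 15 fru transcripts use was 51566 bp away from the nearest shared locus.

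rib (FBgn0003254, 2R, 19270078 to 19281396, plus strand), which encodes Ribbon, a factor of tube formation in the trachea and salivary gland, had no shared locus. It had 1, 0 and 2 peaks in replicates 1, 2 and 3. A locus at 19275507, at an offset of −225 bp from an internal start, had signals of 97.3 in replicate 1 and 76.0 in replicate 3. With replicate 2 left out it would count as common to both other replicates.

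Over the 35 shared loci, the strength was spread about as widely as over the whole series. The mean percentile was 63.1 and the median 63.9, with quartiles of 43.9 and 82.9, beside a mean of 64.9 and a median of 66.6 over all 3746 shared loci. A mean percentile of 80 or more was reached by 11 of the 35 (31.4%), beside 30.3% of all shared loci, and 12 (34.3%) were under 50, beside 27.8%. The order of strength was similar in each pair of replicates, with a Spearman correlation across the 35 loci of 0.847 between replicates 1 and 2, 0.866 between 1 and 3, and 0.851 between 2 and 3. Across all 3746 shared loci the same values were 0.880, 0.874 and 0.879. The loci share their libraries and are not independent points. The summits of a shared locus spanned a median of 35 bp at the 10 genes, with a maximum of 155 bp, and of 32 bp in the series.

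**Figure D3:**
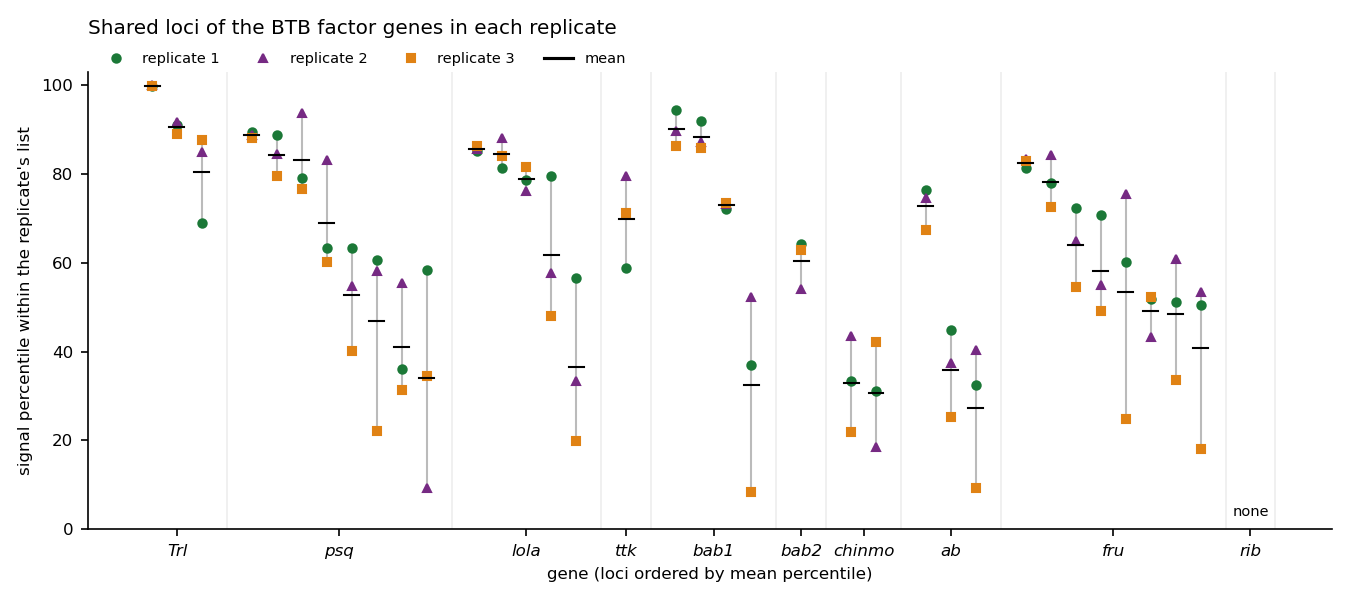
Signal percentile within each replicate's own list (vertical axis) at every shared locus of the 10 genes (horizontal axis, loci ordered by mean within a gene), with replicate 1 as circles, replicate 2 as triangles, replicate 3 as squares and the mean as a black bar. The strongest locus of Trl has a mean of 99.9, both loci of chinmo lie near 30.6 to 33.0, and the widest gap between replicates is at a fru locus with a mean of 53.5.

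Of the 75 loci, 35 were found in 3 replicates, 15 in a pair and 25 in 1, or 46.7%, 20% and 33.3%, beside 41.6%, 21.3% and 37.2% of all loci. Their median percentiles were 63.9, 34.2 and 17.3, beside 66.6, 33.2 and 16.4 over the series. By these medians the loci that were not shared were weaker, at the 10 genes as elsewhere, but the ranges overlapped. Unshared loci reached 71.2 in psq (replicate 1) and 67.0 in ttk (replicate 2), while shared ones went down to a mean of 27.4 in ab. The psq one, at 10564637, was a second summit of replicate 1 beside the shared locus at 10564390. Its peak overlapped the replicate 1 peak of that locus, and only the joining distance set it apart. The unshared loci together lacked 65 peaks, of which 20, 16 and 29 were missing in replicates 1, 2 and 3. In 54 of these cases the longer ranked list of that replicate did hold a peak within 150 bp, under the score of 830 that the thresholded lists start from, and in 11 it held none. A ranked peak could count for more than 1 case, as it did at neighbouring loci of chinmo. The authors' conservative list, made from all replicates together, held 35 of the 35 shared loci, 11 of the 15 found in a pair and 12 of the 25 found in 1. Over all loci of the series it held 99.5%, 92.4% and 56.4% of these classes, and its share of the unshared loci was thus lower at the 10 genes, a difference that was not tested.

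The limits of the rule fall among weak loci. The farthest locus still counted lay 4962 bp beyond lola, at 10476932, in a pair of replicates with a mean percentile of 38.9. The nearest one not counted lay 5176 bp from lola on its other side, at 10548467, also in a pair of replicates with a mean percentile of 18.9. The lowest score among the 162 counted peaks was 840, for a peak in a psq intron in replicate 2 with a signal of 47.0. The highest score at these genes that missed the threshold was 827, also at psq in replicate 2, with a signal of 61.6. The score reached its cap of 1000 in 128 of the 162 peaks, so it does not rank the stronger ones.

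Introns held more of these loci, and promoters fewer, than in the series as a whole. Of the 35 shared loci, 24 were intronic (68.6%, beside 49.4% of all shared loci), 7 were at promoters (20%, beside 32.0%) and 4 were intergenic (11.4%, beside 16.4%). None lay in a coding exon or an untranslated region outside the promoter limit. Most of the intronic loci were those of fru (8), psq (5) and bab1 (4), while lola had 0 intronic and 4 promoter loci. The rule admits only loci in or near the 10 genes, of which 8 have a body of at least 20 kb. Position shares were not counted for long genes as a set, and the difference from the series was not tested. Among the 33 distinct starts of the 10 genes, 7 had a shared locus within 500 bp (21.2%), beside 8.18% of the starts of all protein-coding genes. These 7 were 1 start of Trl, 3 of psq and 3 of lola. Neighbouring shared loci of a gene lay a median of 4608.5 bp apart, and 5 of the 26 gaps were under 2 kb: 1 each in Trl, psq and ab and 2 in lola.

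Within 100 bp of the centre, words bound by members of the family were found at shares close to those around the loci. GAGAG, the word bound by the products of Trl and psq, was looked for, on either strand and up to 100 bp from the centre, and was found at 9 of the 35 loci (25.7%). It was found in 27.1% of windows of the same width 500 bp to each side of them, at 23.1% of the other 3711 shared loci and in 22.1% of 13968 promoter windows. The 9 loci were 3 of psq, 2 of lola and 1 each of bab1, bab2, chinmo and fru, and none of the 3 Trl loci held the word. The strongest loci of psq and lola, whose sequences are not printed, both held it, as did those of bab1 and bab2. In bab1 and bab2 its only match stood near the edge of the window, away from the centre. AGGAC, a word of Tramtrack binding, was found at 3 loci (8.57%), beside 7.14% of their flanks, 8.46% of the other shared loci and 11.1% of promoter windows. The shared locus of ttk itself was among them.

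The other fixed words were found at 5 loci or fewer each. The repeat CACACAC was found at 5 loci (14.3%), beside 22.9% of their flanks, 5.60% of the other shared loci and 4.56% of promoter windows. CAGCTG, an E-box, was found at 3 loci (8.57%), beside 10% of their flanks, 5.07% of the other shared loci and 11.6% of promoter windows. AGGTCA, a nuclear receptor word, was found at 2 (5.71%), beside 4.29%, 3.45% and 3.83% in the same order. GGTCACA was also found at 2 (5.71%), beside 1.43%, 1.56% and 5.05%. TATCGAT was found at 1 (2.86%), beside 1.43%, 2.51% and 14.8%. Counts of 1 to 3 loci are too few to set these shares apart. The share of CACACAC lay above that of the other shared loci but below that of the flanks, which was not tested. The words CAGGTAG (Zelda), TGACTCA (AP-1) and CACGTG (an E-box) were not among the letters of the 35 windows, and nothing about a factor follows from that. Matches describe letters and do not show a binding site.

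The loci were rich in A and T. The median GC content within 100 bp of the centre was 32.8%, beside 43.0% in the flanks, and the other shared loci of the series had 32.8% and 42.8%. GC content was lower than the mean of the locus's own flanks at 25 of the 35 loci (71.4%), beside 83.2% of the other shared loci. The strongest locus of Trl had 25.4% at the site and 45.8% in the flanks, and the lowest value, 23.4%, belonged to the intronic bab1 locus at 1064549. The exceptions with more GC than their flanks included the internal promoter locus of Trl (46.8% and 41.8%), the bab2 locus (53.2% and 33.3%), the chinmo intron (48.8% and 41.0%) and the lola promoter at 10535079, the highest at 57.2%.

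**Figure D4:**
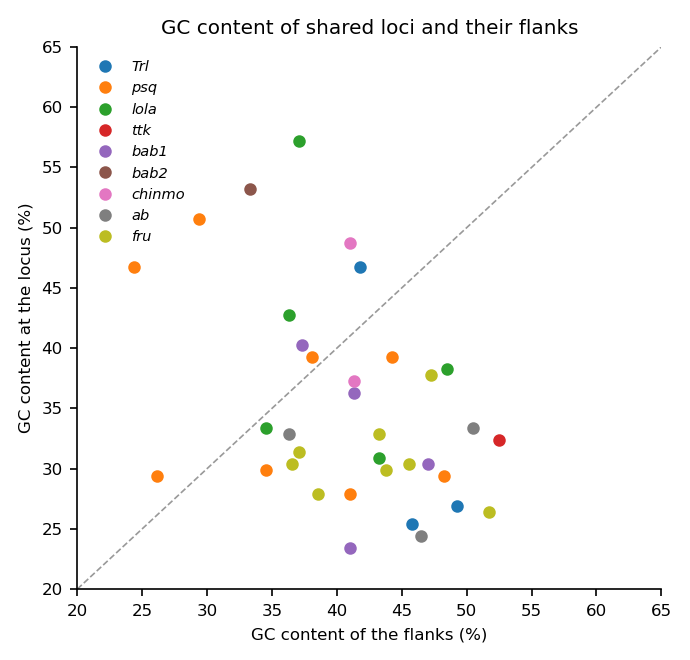
GC content within 100 bp of the centre at each of the 35 shared loci (vertical axis, %) against the mean GC content of the windows 500 bp to each side (horizontal axis, %), coloured by gene. Points under the dashed line of equality, 25 of the 35, have less GC than their flanks.

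At least 1 of the 10 A/T words named above was found at 26 of the 35 loci (74.3%), beside 61.4% of their flanks. The same share was 83.9% at the other shared loci, 53.2% in the flanks of those and 67.2% in promoter windows. AAAAAAA was found at 13 of the 35 loci (37.1%, beside 25.7% of their flanks), and AAAATAT at 12 (34.3%, beside 14.3%). TTTAAAA was found at 11 loci (31.4%, beside 11.4%), as was AAATATA. At 9 loci each (25.7%) stood AAAAAAT (22.9% of flanks) and AAAAATA (15.7%), as well as TTAAAAA (17.1%), the word TAAAAAA (18.6%) and finally AAAATAA (21.4%). The tenth word, TAAAATA, was found at 7 loci (20%, beside 8.57%). The words overlap each other in part, so 1 stretch of bases can hold several of them.

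Other BTB genes, 14 in number, were looked up for comparison with the 10. A shared locus was found at 9 of them (64.3%), beside the background of 32.8% given above, and at a start of their own in 3, beside 9.06%. Among the 9 were br, lov, mod(mdg4) and CG3726, with bodies of at least 20 kb. For protein-coding genes of that length the background was 62%, and 19.8% at an own start. This list too was chosen with earlier results of these data known, so nothing is read from the shares. The 14 genes held 19 shared loci, with a median of 3.52 per 100 kb. CG3726 had 6, the strongest of them intronic with a mean percentile of 98.7 ± 0.473 (SD, n = 3), and ken, whose product represses targets of the JAK/STAT pathway, had 4, the strongest at 93.8 ± 2.33. mod(mdg4), which encodes insulator proteins, had 2, the strongest (94.5 ± 3.32) at the promoter of the neighbouring gene tin, and CG6118 had 2, the strongest at 63.5 ± 10.01.

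A single shared locus was found at each of the others. Cp190, which encodes an insulator cofactor, had a promoter locus at 96.0 ± 2.46, nearest to the start of CG4338. br, an early gene of the ecdysone response, had an intronic one at 89.6 ± 4.41, nearest to Mur2B, and lolal, whose product pairs with the GAGA factor, had a promoter one at 74.2 ± 14.3. lov (also known as Tkr) had an intronic locus at 46.9 ± 27.2, nearest to CG30430, and CG6765 had one at 45.9 ± 25.01, at the promoter of GstO3, both placed unevenly by the replicates. BtbVII, CG8924, CG12236, CG32121 and CG34376 had none.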

How the data were processed

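The samples were 3 biological replicates of CG8119-eGFP ChIP-seq in whole prepupae. Peak lists on build dm6 were deposited by the authors, per the README texts; which aligner and caller made them is not given in the sources used here. Each thresholded list holds a deposited signal per peak, on an unstated scale, and a deposited score scaled from the irreproducible discovery rate (IDR), whose lowest value of 830 matches an IDR of 0.01. No read counts were at hand, so depth is unknown. Summits within 150 bp were joined into loci. Gene models came from Ensembl release 115 without transposable elements, and positions were assigned in the order promoter (500 bp), untranslated regions, exons, intron, intergenic. Signals were compared by rank within a list, because an SD of signal can hold differences of scale. The conservative list was used only to look up loci.

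The members, gene lists, words and alternatives were chosen with earlier results of these data known, so all values are descriptions without a test. Of 15 further BTB genes listed, 14 matched by symbol or synonym and 1 synonym was ambiguous. Named loci were the 3 strongest shared loci of each gene and those at its own starts; a neighbouring gene was named where its start was nearer. A few weaker loci and CG42507 were named after their values were seen. The joining of loci was run on simulated sites that all lay far apart, so it was not tested for closely spaced summits. Python 3.11.15, numpy 2.4.6 and pandas 2.3.3 were used.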

Additional observations from a re-analysis of the deposited data

How the results depend on the processing

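The ratio of locus density at the 10 genes to that of all protein-coding windows stayed between 1.73 and 1.95 under the 10 alternatives tried, which left out each replicate, changed the joining distance, the overlap rule, the peak lists or the width of the window. Leaving out each replicate in turn gave mean signal percentiles of 58.1 to 60.8, promoter shares of 21.1% to 24.3% and GAGAG shares of 23.7% to 31.8%. With the stronger 50% of each list, 19 shared loci were left at the 10 genes, with a mean percentile of 80.2, since weaker peaks were removed. The promoter share was 14.8% with the gene body only and 25.7% with a promoter limit of 1000 bp. GAGAG was found at 14.3% of loci within 50 bp and at 62.9% within 200 bp. Its share in flanks, other shared loci and promoter windows was not counted at those widths, so no comparison can be made there. Among single genes, the count was 1 in rib without replicate 2, and 4 in ttk and 9 in lola without replicate 3. Joining summits within 50 bp left 5 loci in psq and 1 in chinmo. With the stronger 50% of each list, fru and lola had 3, psq 4, ab 1 and chinmo 0. Depth is unknown, and a locus missing from a replicate may be a weak peak below the threshold, so absence from a list was not read as absence of binding.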
